A study of Mus musculus with 2 samples.

Results

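The genes described here are the microRNA (miRNA) genes that lie wholly inside the mouse gene Sfmbt2 and are transcribed in the same direction as it. They were found by position alone: 107 of the 1973 miRNA gene rows in the count tables had GENCODE coordinates on build GRCm38 within the Sfmbt2 gene body (chromosome 2, 10370510 to 10595253, plus strand). The data are small-RNA sequencing counts from limb tissue of B6NCrl mouse embryos of both sexes at embryonic day 10.5, when the limb is a bud of mesenchyme under ectoderm. The 2 libraries are biological replicates of 1 group with no treatment or mutation named; replicate 1 pooled 69 embryos and replicate 2 pooled 51. With 1 group there is no contrast between conditions, and no exact test over 2 libraries can go below a two-sided p of 0.5, so each level below is a mean ± SD over the libraries (n = 2 throughout), without a p-value.

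Sfmbt2 encodes a Polycomb-associated protein and is an imprinted gene, expressed from the paternal allele in the placenta. In mouse and rat 1 of its introns holds a large array of miRNA hairpins that arose by repeated duplication, and the miRNAs of this array are best known from trophoblast, where they support placental growth. A miRNA gene is transcribed as a long precursor, a hairpin is cut out of it, and the hairpin yields short mature strands that bind target mRNAs through the seed, bases 2 to 8. When hairpins are near-copies of each other, a short read can match many of them equally well.

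Members carry 4 recurring name stems, Mir297, Mir466, Mir467 and Mir669, and the remaining 48 have provisional Gm names. The RefSeq sequence table (GRCm38.p6) matched 0 of the 107 members by symbol. It matched 9 of the 10 genes that carry these stems but lie elsewhere in the genome. Mature sequences of 5 of those outside genes are shown, with the seed in capitals, as examples from genes that share the Mir466, Mir467 and Mir669 stems, with long runs that alternate between purine and pyrimidine.
miR-466i-3p: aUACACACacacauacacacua
miR-466k: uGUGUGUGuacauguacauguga
miR-467f: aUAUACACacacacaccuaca
miR-467g: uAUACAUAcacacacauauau
miR-669n: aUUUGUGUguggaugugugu
In miR-467g all 20 of 20 steps from one base to the next switched between purine and pyrimidine, in miR-466i-3p 20 of 21, in miR-466k 21 of 22, in miR-467f 18 of 20 and in miR-669n 15 of 19. These sequences lie on chromosome 5 (miR-467g, 34732872 to 34732892, minus strand), chromosome 13 (miR-466i-3p, 17747552 to 17747573, plus strand), chromosome 3 (miR-466k, 85467396 to 85467418, and miR-669n, 115979905 to 115979924, both plus strand) and chromosome 11 (miR-467f, 69635419 to 69635439, minus strand), none of them in an annotated host gene on the same strand. All 10 outside genes of the 4 stems had a sense count of 0 in both libraries. Among rows with a GENCODE name, all reads that were placed under these stems in the limb therefore fell at genes inside Sfmbt2. Whether reads can be placed at the outside genes alone was not tested.

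The tables give reads per hairpin gene, so the arms of a hairpin are not separated. The sense counts in genes totalled 3581672 in replicate 1 and 3576482 in replicate 2, and CPM are counts per 1000000 of those totals. Multimapping reads were 21.9% and 25.4% of all reads and were given to no gene, which bears on every value below: a count is the number of reads placed at that hairpin and nowhere else. For a hairpin with no count, a level of up to 0.838 CPM (replicate 1) or 0.839 CPM (replicate 2) of reads placed only there is possible, from 3 counts; the upper end of the two-sided 95% exact binomial interval used for the other values is higher, at 1.03 CPM in each library. Neither bound says anything of a mature sequence that several hairpins share. Intervals and these limits cover counting error only. Of the markers listed for the limb, the mesenchyme and Hox-associated miRNA genes were all detected (6 of 6, summed 198148 and 187131 CPM), as were the ectoderm genes (4 of 4, 8249 and 7656 CPM). The blood genes were detected at lower levels (3 of 3, summed 652 and 412 CPM), and the liver gene Mir122 had 24.8 and 5.59 CPM. Of the neural list 5 of 6 had a row and 0 were detected, with no count at Mir124a-1, Mir124a-2 and Mir124a-3. That list is made up of numbered copies of Mir124a and Mir9, and a read that matches several copies was given to no gene. Its low counts therefore do not show that these miRNAs were absent.

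The cluster as a whole held a small part of the sense counts in genes, which leave out multimapping reads. It held 13214 sense counts in replicate 1, or 0.369% (95% exact binomial interval 0.363 to 0.375), and 9821 in replicate 2, or 0.275% (0.269 to 0.280). The mean was 3218 ± 667 CPM. Detection required 10 or more sense counts in each library. By that rule 9 of 107 members (8.41%) were detected, against 17.6% of all miRNA gene rows. At least 1 count in either library was found at 30 members (28.0%), against 35.6% of all rows, and 77 members had none. No antisense count was found at any member in either library.

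Counts placed at 1 hairpin were concentrated in the Mir467 stem. Its 14 members held 10735 counts in replicate 1 and 7944 in replicate 2, or 81.1% ± 0.249 of the cluster (SD, n = 2), with 3 detected. The 20 Mir669 members held 18.3% ± 0.0800, with 5 detected. The 20 Mir466 members held 0.491% ± 0.127, with 1 detected. The 5 Mir297 members had 3 and 8 counts in all, with none detected, and the 48 Gm-named members had 8 and 6, with none detected. In every stem the median member had a mean count of 0. The stems differed in how many members have sequence of their own to which a read can be placed, as given below. The shares therefore do not compare the full output of the stems. The names do not fully separate families either, since the hairpin of Gm25022 is identical to that of Mir467a-5. The shares of Mir467 and Mir669 were nearly equal in the 2 libraries although the cluster total was not. The small share of Mir466 was 0.401% in replicate 1 and 0.580% in replicate 2, and that of Mir297 was 0.0227% and 0.0815%.

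**Figure D1:**
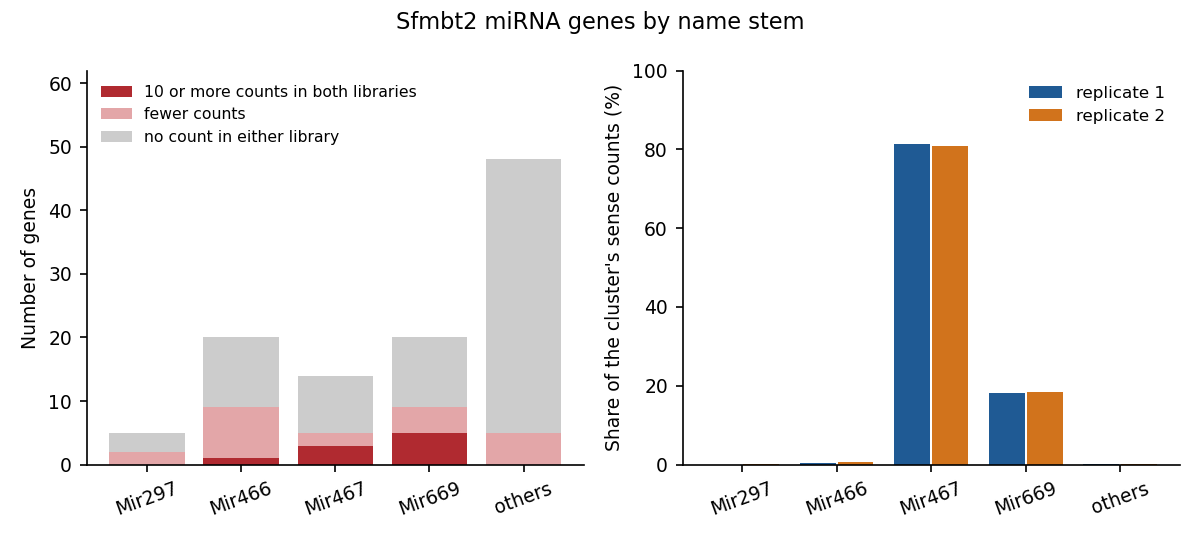
Left, number of Sfmbt2 miRNA genes by name stem, split by whether they had 10 or more sense counts in both libraries, fewer, or none in either library. Right, share of the cluster's sense counts (%) by stem in each library; Mir467 holds 81.2% and 80.9%, and Mir669 holds 18.3% and 18.4%.

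Mir467c led the cluster. It had 4282 counts in replicate 1 and 3547 in replicate 2, which is 1196 and 992 CPM (mean 1094 ± 144). It lies at 10473931 to 10474027 and alone held 34.3% ± 2.62 of the cluster. By mean CPM it ranked 88 among all 1973 miRNA gene rows.

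Mir467d (10507630 to 10507714) followed with 3970 and 2729 counts, or 1108 and 763 CPM (mean 936 ± 244, rank 99). Mir467e (10505721 to 10505807) had 2459 and 1664 counts, or 687 and 465 CPM (mean 576 ± 156, rank 114). These 3 genes were the only Mir467 members that reached 10 counts in both libraries. Mir467d and Mir467e are near neighbours in sequence as well as in position. Their annotated hairpins differed by 7 edits (92.0% identity), and each differed from that of Mir467c by 16 edits (83.5%).

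The Mir669 stem gave the next pair. Mir669l (10468971 to 10469068) had 1100 and 766 counts, or 307 and 214 CPM (mean 261 ± 65.7), and Mir669o (10514300 to 10514395) had 929 and 800 counts, or 259 and 224 CPM (mean 242 ± 25.2). They lie near opposite ends of the cluster and ranked 142 and 148. Together with the 3 Mir467 genes they made up 96.6% ± 0.268 of the cluster's counts. These 5 genes also lay above 136 CPM, the median of the 348 miRNA genes detected in the limb.

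The remaining detected members were below that median. Mir669c (10509296 to 10509404) had 285 and 182 counts, or 79.6 and 50.9 CPM (mean 65.2 ± 20.3). Mir669e (10467495 to 10467613) had 76 and 39 counts, or 21.2 and 10.9 CPM (mean 16.1 ± 7.29). Mir466n (10513741 to 10513834), the only detected Mir466 member, had 42 and 49 counts, or 11.7 and 13.7 CPM (mean 12.7 ± 1.40). Mir669h (10518155 to 10518279), the last hairpin of the cluster, had 16 and 15 counts, or 4.47 and 4.19 CPM (mean 4.33 ± 0.193), and ranked 340.

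Mir669h was the lowest member inside the detection threshold. Just outside it were Mir467b (10481248 to 10481320) with 15 and 3 counts and Mir467a-1 (10476346 to 10476418) with 9 and 1. The other 19 undetected members with any count had at most 6 in a library. All undetected members together held 55 counts in replicate 1 and 30 in replicate 2, or 0.416% and 0.305% of the cluster.

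**Figure D2:**
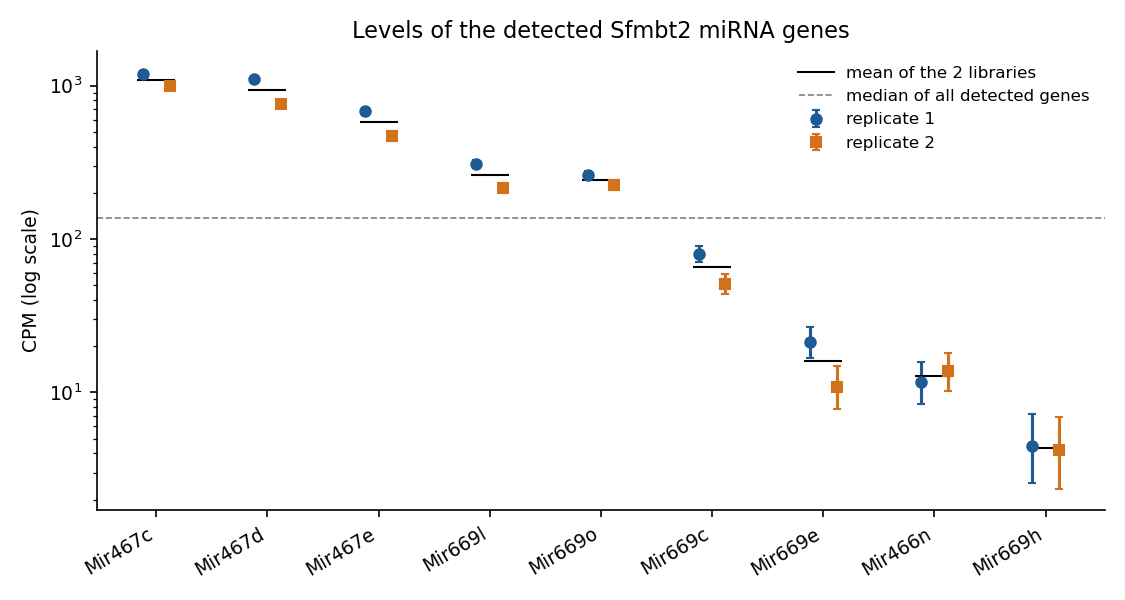
CPM (log scale) of the 9 detected members in each library, with 95% exact binomial intervals as error bars, where larger than the symbol, and the mean of the 2 libraries as a black line. The dashed line is the median of all detected miRNA genes, 136 CPM; 5 members lie above it in both libraries and 4 below.

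The order of the levels held in both libraries except for a pair of exchanges. Mir467c was above Mir467d by a log2 ratio of 0.11 (95% interval from counting 0.05 to 0.17) in replicate 1 and 0.38 (0.31 to 0.45) in replicate 2. Mir467d was above Mir467e by 0.69 and 0.71, and Mir467e above Mir669l by 1.16 and 1.12. These steps were nearly the same size in both libraries. Mir669l and Mir669o were not separated: Mir669l was higher in replicate 1 (log2 ratio 0.24, 0.12 to 0.37) and lower in replicate 2 (-0.06, -0.21 to 0.08). The same held for Mir669e and Mir466n, with log2 ratios of 0.86 (0.29 to 1.44) and -0.33 (-0.97 to 0.31). Mir669o was above Mir669c by 1.70 and 2.14, Mir669c above Mir669e by 1.91 and 2.22, and Mir466n above Mir669h by 1.39 and 1.71.

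The position of a member in the intron went with whether it had counts. All 107 members lie between 10465287 and 10518279, a stretch of 53.0 kb that starts 94.8 kb from the annotated start of Sfmbt2. They fall in 1 intron of 62472 bases (10461473 to 10523944), which is intron 10 of one full-length Sfmbt2 transcript (ENSMUST00000041105) and intron 11 of the other (ENSMUST00000116594). None overlapped an annotated Sfmbt2 exon. The hairpins are 73 to 127 bases long, with a median gap of 210 bases between neighbouring members. GENCODE lists 12 more miRNA genes in this gene body that were not analysed here.

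The middle of the cluster is a tandem array. From Mir467a-1 to Mir467a-10 (10476346 to 10503355, 27.0 kb) 12 hairpins of the Mir467a kind follow each other every 2413 to 2470 bases (median 2451). This stretch was delimited after the counts had been seen. It holds 55 members, of which 0 were detected and 2 had any count, Mir467a-1 and Mir467b, with 24 counts together in replicate 1 and 4 in replicate 2. The 20 members upstream of it, with Mir669e, Mir669l and Mir467c detected, held 42.9% ± 2.11 of the cluster's counts (5473 and 4361). The 32 members downstream, with Mir467e, Mir467d, Mir669c, Mir466n, Mir669o and Mir669h detected, held 57.0% ± 2.01 (7717 and 5456). The array held 0.111% ± 0.0996. Its limit was set at the end of Mir467a-10. The next hairpin, Mir466b-3, follows after 209 bases, had 1 and 3 counts and is counted as downstream.

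The array is also where hairpins are copies of each other. In the GENCODE hairpin sequences, 38 members were identical over their whole length to at least 1 other annotated miRNA hairpin, 37 of them in the array and 1 downstream. None of these 38 had a count in either library, which follows from counting only reads placed at 1 hairpin. The largest set had 7 identical hairpins: Mir467a-2, Mir467a-4, Mir467a-5, Mir467a-7, Mir467a-8, Mir467a-9 and Gm25022, named after their values were seen. A read from any of these 7 cannot be placed at 1 of them, whichever made it.

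As a finer measure, the 22-base windows of each hairpin, about the length of a mature miRNA, were searched on both strands in all annotated transcripts. In 42 members every window occurred more than once, 40 of them in the array, 2 downstream and 0 upstream. By stem they were 10 of 14 Mir467, 6 of 20 Mir466, 4 of 20 Mir669, 0 of 5 Mir297 and 22 of 48 Gm-named members. Of these 42, 0 were detected and 1 had a count (Mir467a-1). All 9 detected members had windows found nowhere else among the transcripts, from 25 of 64 in Mir467d (39.1%) to 95 of 98 in Mir669e (96.9%). In Mir467c it was 48 of 76, in Mir467e 39 of 66, in Mir669l 41 of 77 and in Mir669o 44 of 75. Only reads placed at 1 hairpin and nowhere else were counted. The lack of counts without windows of their own was therefore nearly fixed in advance. So was the presence of such windows in the detected members, and neither is an independent result.

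Nearly all members with counts had such windows (29 of 30), as the counting rule nearly requires, but many members with such windows had no count. Of 65 members with at least 1 such window, 29 had a count and 36 had none. At or above the 25 windows of Mir467d there were 47 members, and 22 of them had no count in either library. Gm26073, named after its values were seen, had 92 of 106 windows of its own and no count. The windows were compared with annotated transcripts and not with the whole genome, so copies in unannotated sequence were not seen, and windows were not limited to the mature strands.

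**Figure D3:**
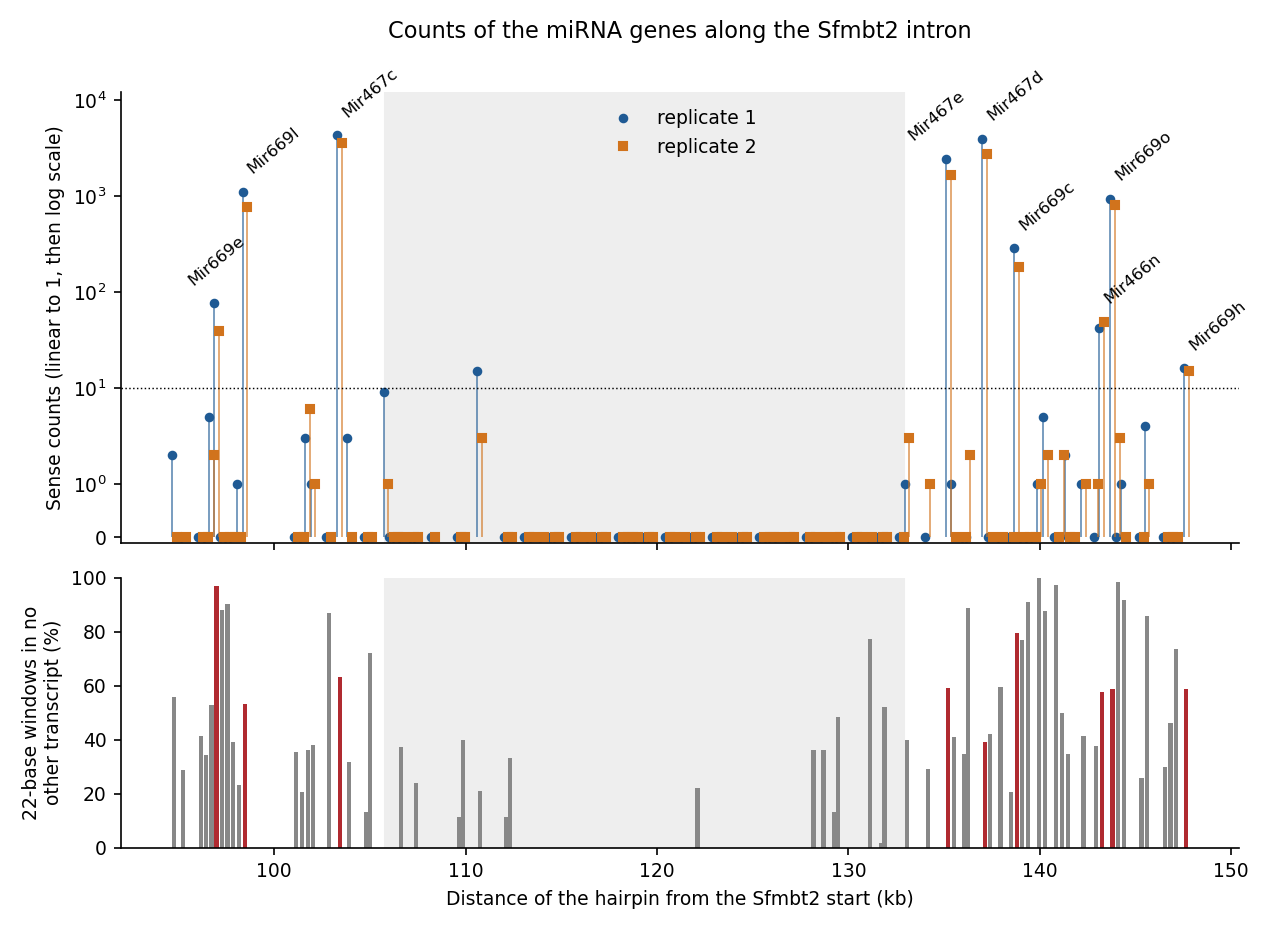
Top, sense counts of the 107 members in each library (linear up to 1, then log scale) against the distance of the hairpin from the Sfmbt2 start (kb), with the detected members named and a dotted line at 10 counts. Bottom, the share of each hairpin's 22-base windows found only once among annotated transcripts (%), with detected members in red. The shaded stretch is the 27.0 kb tandem array, where 0 of 55 members were detected.

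The cluster total was lower in replicate 2, by a log2 ratio of -0.43 (95% interval from counting -0.46 to -0.39) when scaled by the sense total. Most miRNA genes shifted the same way: over the 250 genes with a mean of at least 100 counts the median log2 ratio was -0.27 (SD 0.66), and 66.8% were lower in replicate 2. Scaling by edgeR's TMM factors moved every ratio by 0.28, which put the median of those genes at 0.01 and the cluster at -0.14, with 48.8% of genes lower. Of the 9 detected members, 8 were lower in replicate 2 by the sense total and 5 by TMM. The direction therefore depended on the scaling for Mir467c, Mir669o and Mir669h. Mir669e, Mir466n and Mir669h had means below 100 counts and are not among the 250 genes. The other 6 detected members were all lower in replicate 2 by the sense total, but Mir467c and Mir669o were not by TMM.

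The detected members differed among themselves in how far apart the libraries were, from 0.22 for Mir466n to -0.96 for Mir669e. The log2 ratio was -0.27 (-0.33 to -0.21) for Mir467c, at the median of the 250 genes with a mean of at least 100 counts. It was -0.54 (-0.61 to -0.47) for Mir467d and -0.56 (-0.65 to -0.47) for Mir467e. Mir669l had -0.52 (-0.65 to -0.39), and Mir669o had -0.21 (-0.35 to -0.08). These intervals hold counting error only, and with 1 library on each side the differences between members have no test. Mir669c had -0.64 (-0.92 to -0.37) and Mir669e -0.96 (-1.56 to -0.39), both below the lower quartile of the 250 genes (-0.58). Mir669e, with a mean of 57.5 counts, is not itself one of those genes. The undetected Mir467b, with 15 and 3 counts, had -2.32 (-4.75 to -0.50). The intervals of Mir466n (0.22, -0.40 to 0.85) and Mir669h (-0.09, -1.21 to 1.02) included 0. Over the 6 members with a mean of at least 100 counts the SD of the log2 ratio was 0.17, against 0.66 over all 250 such genes. These 6 are stated as a description, since they come from 1 intron and are not independent of each other.

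**Figure D4:**
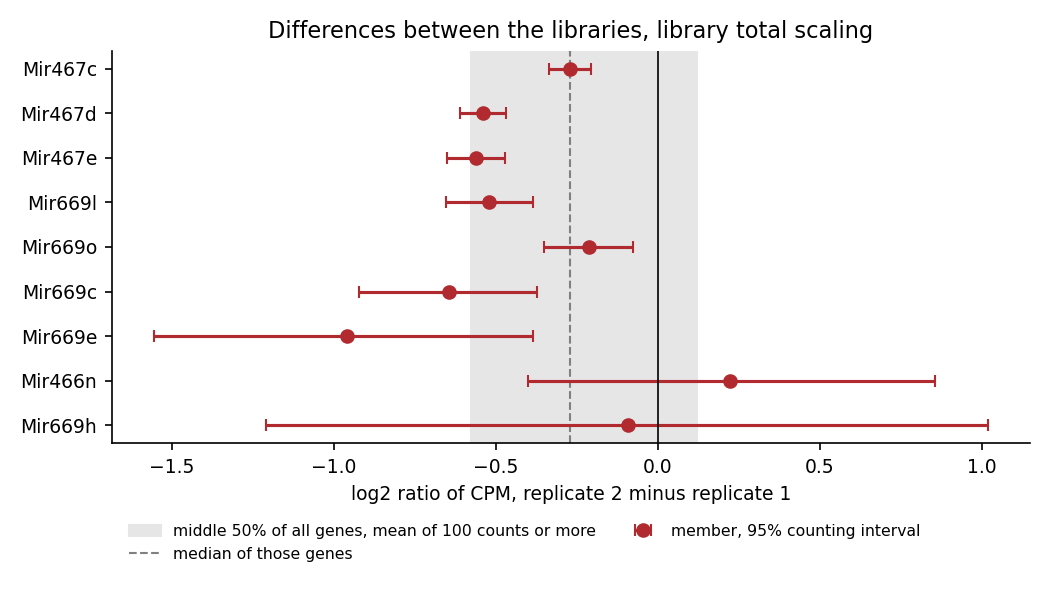
Log2 ratio of CPM, replicate 2 minus replicate 1, for the 9 detected members with 95% counting intervals, scaled by the sense totals. The grey band holds the middle 50% and the dashed line the median (-0.27) of the 250 genes with a mean of at least 100 counts; 7 members have intervals wholly below 0, and with TMM scaling every point moves right by 0.28.

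All 6 marker lists had lower summed levels in replicate 2 by the sense total, those of limb mesenchyme, ectoderm, blood, liver and neural tissue as well as that of trophoblast and early embryonic cells. With TMM or DESeq2 scaling the mesenchyme and ectoderm lists were higher in replicate 2 and the other lists still lower. The neural sums, 2.23 and 1.40 CPM with 0 genes detected, are too low to carry a direction, and the liver list is 1 gene. Single genes could go against a sum: the lowest level in the mesenchyme list was 328 CPM in replicate 1 and 409 CPM in replicate 2. Mir122 went from 24.8 to 5.59 CPM, as given above. Of the 6 genes listed for trophoblast and early embryonic cells, Mir290a, Mir291a, Mir292a, Mir293, Mir294 and Mir295, 5 had a row under that name and 4 were detected, with summed levels of 240 CPM in replicate 1 and 77.2 CPM in replicate 2. Mir290a, which was not detected, had 1.12 CPM in replicate 1 and no count in replicate 2, both near the lower limit of the counts. The part of any of these lists in the difference between the libraries was not tested. In a bulk tissue, fewer cells of a type and less RNA per cell cannot be told apart.

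Another imprinted miRNA cluster, the Dlk1-Dio3 region on chromosome 12, was detected over most of its length. Of 53 miRNA genes from the start of Meg3 to the end of Mirg, 43 (81.1%) were detected and 5 had no count. Inside Sfmbt2 9 of 107 were detected and 77 had no count, and over all miRNA gene rows 17.6% were detected. The Dlk1-Dio3 region held 5.45% ± 1.33 of the sense counts, led by Mir487b at 7403 ± 1202 CPM and Mir411 at 6600 ± 1803 CPM. Among detected genes the median was 525 CPM there and 242 CPM inside Sfmbt2. The total of that region was also lower in replicate 2 (log2 ratio -0.50, and -0.22 by TMM). In the Mir290 to Mir295 cluster on chromosome 7, 6 of 7 genes were detected at 0.0203% ± 0.0148 of the counts, led by Mir293 at 90.9 ± 51.5 CPM and Mir294 at 50.7 ± 50.3 CPM. Its total had a log2 ratio of -1.64 (-1.36 by TMM), against -0.43 (-0.14 by TMM) for the Sfmbt2 cluster. With 1 group of 2 libraries the differences between these clusters have no test over samples, and hairpins within each are neighbours and not independent. Windows were counted for the Sfmbt2 members only, and 42 of those had none of their own. Whether reads can be placed equally well in the other clusters was not tested.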

How the data were processed

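Small-RNA reads from 2 limb libraries were counted per miRNA gene by the authors, and the deposited tables, separate for each library, hold raw counts that were not normalized. Per the readme texts deposited with them, reads were aligned to mm10 and counted over GENCODE M4, without pooling. For the aligner, counter and adapter trimming the tool is not given in the sources used here. By their values the columns are both strands, sense and antisense, and the rows for reads in no gene (unmapped, multimapping, outside genes) made up 64.4% and 50.5% of the reads and were left out of the totals. CPM were computed from the sense column.

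Genes were placed by Ensembl identifier with GENCODE M21 (GRCm38, the build of mm10): 1894 of 1973 matched, and of the 79 others 2 had a sense count, at most 3. Members are rows wholly inside Sfmbt2 on its strand. The members, lists and settings were chosen with earlier results of these data known, and the window search and the array limits were set after seeing the counts. Every detected member is named, as are undetected members with a mean of at least 5 counts and the 2 leading genes of each comparison cluster. The planned search of the genome for windows was replaced by one over GENCODE transcripts, since no genome was used here.

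Intervals are 95%, exact binomial. For ratios between libraries they are conditional on the sum of the counts. TMM factors came from edgeR 4.0.16 and size factors from DESeq2 1.42.0 in R 4.3.3, and the rest was computed with Python 3.11.15, pandas 2.3.3 and scipy 1.17.1. The scaling and window steps were tested on simulated data. Alternatives covered the scaling, strand, denominator, detection threshold, membership rule, window length and leaving out each library.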

Additional observations from a re-analysis of the deposited data

How the results depend on the processing

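The cluster's share of the counts depended on the denominator: 0.322% of sense counts in genes became 0.134% of all reads and 0.205% of gene counts plus multimapping reads, by construction. With both strands, members on either strand, the name stems alone or detected members only it stayed within 1 SD, from 0.315% to 0.322%, and leaving out a library gave 0.275% and 0.369%. The log2 ratio of the cluster total, -0.43, became -0.14 with TMM factors, -0.15 with DESeq2 size factors, -0.14 with TMM factors from all genes and -0.51 without Mir467c, and was -0.42 with both strands. Of 18 member ratios under TMM or DESeq2 scaling, 11 left their counting interval and 7 did not. Detected members numbered 8 to 10 under the other thresholds and without either library. The 65 members with a window of their own were 65 at 18 and 20 bases and against miRNA transcripts only, settings added after seeing the data. The share in genes of the 4 stems outside Sfmbt2 was 0 under each setting tried. The planned search for windows in the genome was not run. No paired analysis was possible because there is 1 group. With 2 libraries the SD is itself imprecise, and reads shared between hairpin copies, counted at no gene, limit every level here.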

Other observations

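The multimapping reads, which were given to no gene, outnumbered the cluster's sense counts by 167 to 1 in replicate 1 and 186 to 1 in replicate 2. How many of them came from the Sfmbt2 cluster cannot be read from the tables.

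Mir467a-1 had 9 and 1 counts although each of its 22-base windows occurred more than once among the annotated transcripts. The other 41 members with no window of their own had none. Its hairpin differed from that of Mir467b, the only other array member with counts, by 2 edits. Both had more counts in replicate 1 than in replicate 2, with log2 ratios of -3.17 (-8.62 to -0.32) and -2.32 (-4.75 to -0.50).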
